A study of Mus musculus with 8 samples.

Results

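The 7 genes followed here are regulators of mitochondrial biogenesis: the coactivator genes Ppargc1a and Ppargc1b, the transcription factor genes Esrra, Nrf1 and Gabpa, and Tfam and Tfb2m, whose products act on mitochondrial DNA. All probe sets annotated to one of these symbols alone were taken, which gave 17 probe sets of 45101 on the array and 7 genes of 18193 named. Ppargc1b was chosen by its signals on these arrays, which were far lower with db-cAMP in WT cells and not in KO cells, so its values are a description, with no test. It is left out of every count of members. The other 6 were chosen as its pathway partners.

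RNA was measured in CD4 T cells purified by autoMACS from spleens of 8-week-old mice. KO mice were deficient in IFN-gR1, the receptor subunit that binds IFN-γ, and WT mice were not. Cells of all 4 groups were activated for 15 h with antibodies to CD3 and CD28 (anti-CD3 and anti-CD28). For the final 3 h either vehicle or db-cAMP, a cell-permeable analogue of the second messenger cAMP, was present. The groups were KO with db-cAMP, KO with vehicle, WT with db-cAMP and WT with vehicle, with 2 arrays each. The design sets the db-cAMP effect beside the presence of the IFN-γ receptor. The titles call the arrays biological replicates, but nothing states that they came from separate mice or cultures, and the p-values then cover only the spread between these arrays, which may be technical. On the 4 KO arrays the free-text description says WT, while title, source name and genotype say KO, and those 3 labels were followed. The sources used here name no strain, KO allele or number of mice.

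Mitochondria carry a small genome, but most of their proteins are encoded in the nucleus. The coactivators PGC-1α (Ppargc1a) and PGC-1β (Ppargc1b) bind transcription factors such as ERRα (Esrra), NRF1 and the ETS factor GABP, whose DNA-binding subunit is encoded by Gabpa, and raise the expression of nuclear genes for mitochondrial proteins. Among the targets are Tfam, which packages mitochondrial DNA and starts its transcription, and Tfb2m, which helps the mitochondrial RNA polymerase to open its promoters. T cells expand their mitochondria after activation through the T cell receptor.

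The promoters of 3 members that were lower with db-cAMP in WT cells are shown because they hold the letters that NRF1 and ETS factors such as GABP are known to bind. Each is the RefSeq window from 250 bases before to 50 bases after the annotated start, on the gene's strand in assembly GRCm38.p6, printed 5′ to 3′. Capitals mark GCGCATGC (NRF1) and CGGAAG (ETS), searched on both strands, so that GCATGCGC and CTTCCG are marked where the match lies on the opposite strand. The Esrra window is chr19:6921759-6922058, the Tfam window chr10:71237995-71238294 and the Tfb2m window chr1:179546227-179546526, all on the minus strand. The start is that of the promoter entry, which lies inside the RefSeq gene. The genes themselves begin at 6922048 (Esrra), 71238328 (Tfam) and 179546305 (Tfb2m). The Tfam window thus lies wholly, and the Esrra window almost wholly, within its gene. Positions below count from the start of the promoter entry, so a negative one need not lie upstream of the gene.
Esrra: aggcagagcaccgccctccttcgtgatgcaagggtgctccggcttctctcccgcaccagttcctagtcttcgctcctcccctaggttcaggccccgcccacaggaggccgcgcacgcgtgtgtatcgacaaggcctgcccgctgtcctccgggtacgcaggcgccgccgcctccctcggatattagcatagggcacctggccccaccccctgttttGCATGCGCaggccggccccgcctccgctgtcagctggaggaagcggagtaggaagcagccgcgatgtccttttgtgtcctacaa
Tfam: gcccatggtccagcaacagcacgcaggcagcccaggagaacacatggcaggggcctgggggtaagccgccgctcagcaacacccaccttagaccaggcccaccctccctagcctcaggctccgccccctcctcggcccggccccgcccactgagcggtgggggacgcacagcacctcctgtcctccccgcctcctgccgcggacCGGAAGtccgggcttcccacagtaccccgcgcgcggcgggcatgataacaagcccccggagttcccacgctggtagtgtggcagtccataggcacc
Tfb2m: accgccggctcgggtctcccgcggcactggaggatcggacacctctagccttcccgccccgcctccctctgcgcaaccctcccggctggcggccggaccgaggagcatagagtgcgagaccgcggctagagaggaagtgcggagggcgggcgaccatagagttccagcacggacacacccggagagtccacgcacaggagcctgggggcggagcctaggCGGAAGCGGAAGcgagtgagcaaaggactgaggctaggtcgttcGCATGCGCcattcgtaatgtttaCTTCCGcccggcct
The NRF1 letters occurred 1 time in the Esrra window, first base at -34 from the start, and 1 time in the Tfb2m window at 14 bases after it. CGGAAG occurred 1 time in the Tfam window, at -46, and 3 times in the Tfb2m window, at -31, -25 and 37. The Gabpa window held CGGAAG 1 time and no NRF1 letters, and the 2 Nrf1 windows and the Ppargc1a window held neither. Of 32851 RefSeq promoter windows of the same length, 2.71% held the NRF1 letters and 16.9% held CGGAAG. A match is a description of the sequence only. The Ppargc1b promoter is not shown.

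The targeted gene and the treatment were checked first. Ifngr1 gave signals of 1060 and 1270 in KO cells with db-cAMP and 439 and 378 in KO cells with vehicle, against 7320 and 8200 in WT cells with db-cAMP and 905 and 873 in WT cells with vehicle. The deleted part of the gene is not described, so where its probe set lies in relation to it is not known here. Gbp2, a GTPase gene induced by IFN-γ, was between 384 and 678 on the KO arrays and between 6960 and 25800 on the WT arrays. Crem, a cAMP-responsive repressor gene, was higher with db-cAMP in both genotypes, at 5540 and 5760 against 860 and 1120 in KO cells and at 23700 and 17500 against 1340 and 1240 in WT cells. Of the T cell identity genes 9 were named on the array and all 9 passed the filter on low values, with summed signals of 86100 to 99300 per array, and Cd4 itself lay between 253 and 539. The sum covers opposite changes of single genes. With db-cAMP, 2 of the 9 rose in KO cells, and 3 rose and 4 fell in WT cells. Between genotypes, 4 were higher and 3 lower in KO cells under db-cAMP, and 1 was higher and 3 lower under vehicle.

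Ppargc1b had 1 probe set. Its signals were 184 and 249 in KO cells with db-cAMP, against 264 and 325 in KO cells with vehicle. In WT cells they were 20.5 and 16.6 with db-cAMP, against 246 and 234 with vehicle. Only the WT arrays with db-cAMP lay far below the others, and they lay below the median signal of all probe sets, which ran from 56.2 to 70.5 over the 8 arrays. In WT cells the log2 change was -3.36 ± 0.3 (SE; 95% interval -4.01 to -2.71), a 10.2-fold lower level on the scale of log2(signal + 5.48). That offset, the 10th percentile of all signals, keeps dim values from dominating and understates the change of dim genes. In KO cells the log2 change was -0.44 ± 0.3 (SE; 95% interval -1.09 to 0.21), and the KO effect minus the WT effect was 2.91 ± 0.43. These values chose the gene. In bulk RNA, fewer cells that express a gene and less of its RNA per cell cannot be told apart.

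**Figure D1:**
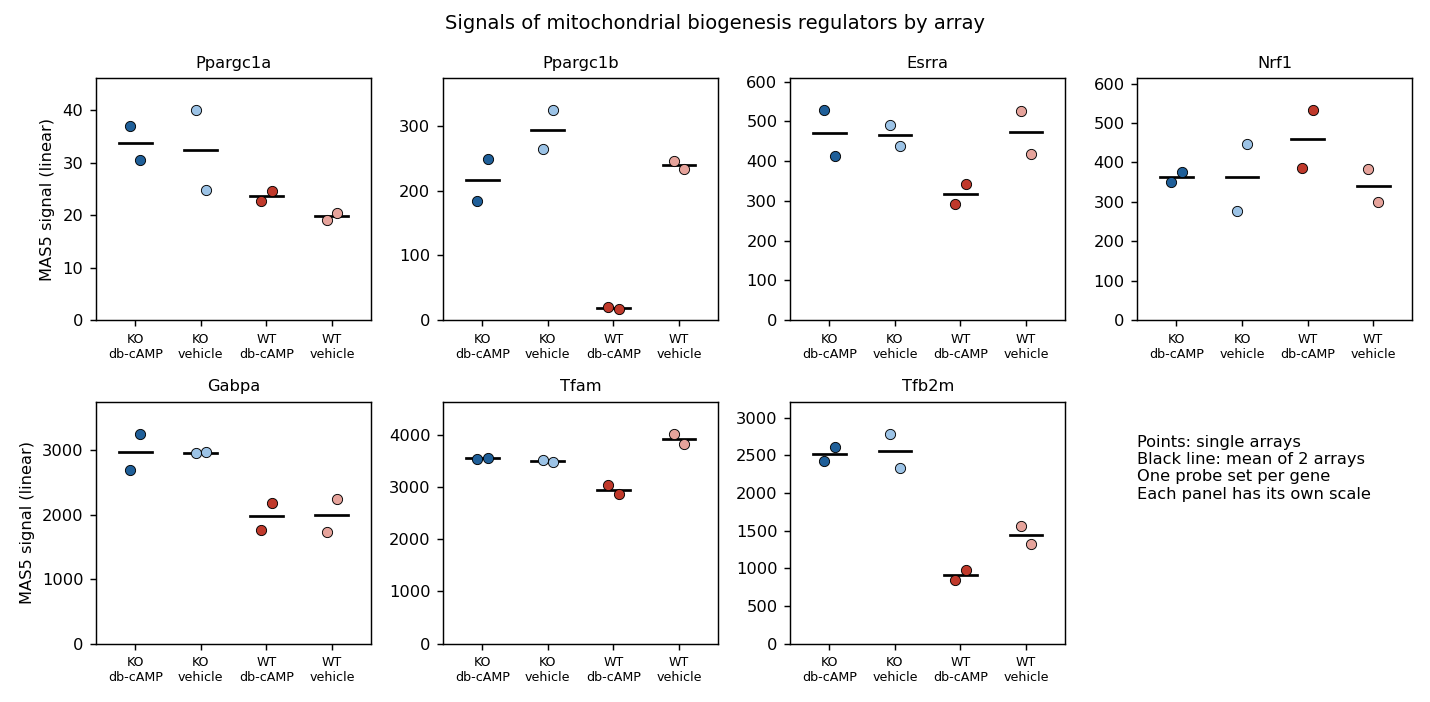
MAS5 signal (linear scale from 0, each panel with its own axis) of the 7 regulators in each of the 8 arrays, with 1 probe set per gene; points are arrays and black lines are means of 2 arrays. Ppargc1b stood at 20.5 and 16.6 in WT cells with db-cAMP and between 184 and 325 elsewhere, while Ppargc1a stayed between 19.1 and 40.1 on all 8 arrays.

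The other coactivator gene, Ppargc1a, was dim throughout. Its brightest probe set had means of 33.8 in KO cells with db-cAMP and 32.4 in KO cells with vehicle, and of 23.7 in WT cells with db-cAMP and 19.8 in WT cells with vehicle. Over its 5 probe sets the signals ran from 1.13 to 69.9, and none of the 5 lay above the array median in 2 or more arrays. Ppargc1a was therefore not tested, and no change in it is reported.

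In WT cells, 3 of the 5 members tested besides Ppargc1b were lower with db-cAMP and none was higher: Tfb2m, Esrra and Tfam, with a median log2 change of -0.41 over the 5. Of all 12091 genes tested, 35.0% changed in either direction, 16.4% being higher and 18.6% lower (limma, Benjamini-Hochberg adjusted p under 0.05), and the median of all genes was 0.01. In KO cells, 0 of the 5 members passed limma's test and 0 had an unadjusted p under 0.05, while 8.38% of all genes changed (4.70% higher and 3.68% lower). The db-cAMP arrays also had higher signals of the 18S rRNA control probe sets in both genotypes, at 38700 and 31400 against 24600 and 26900 in KO cells and at 37600 and 36900 against 28600 and 25500 in WT cells. The part of this control in the changes with db-cAMP was not tested.

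Tfb2m, the mitochondrial transcription factor, fell to 848 and 982 in WT cells with db-cAMP, against 1570 and 1320 in WT cells with vehicle. The log2 change was -0.65 ± 0.12 (SE; adjusted p = 0.000629). In KO cells Tfb2m gave 2430 and 2610 with db-cAMP and 2790 and 2340 with vehicle (log2 change -0.02, 95% interval -0.27 to 0.24). The difference between these effects was itself past the threshold, at 0.64 ± 0.17 (adjusted p = 0.025). That call was lost without any 1 of 5 arrays, namely KO db-cAMP replicates 1 and 2, KO vehicle replicate 2, WT db-cAMP replicate 1 and WT vehicle replicate 1, with values of 0.69, 0.58, 0.51, 0.53 and 0.51. Tfb2m had 1 probe set.

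Tfam, the mitochondrial DNA-packaging factor, had signals of 3540 and 3560 in KO cells with db-cAMP and 3520 and 3480 in KO cells with vehicle. In WT cells it had 3030 and 2860 with db-cAMP, against 4020 and 3830 with vehicle. The log2 change in WT cells was -0.41 ± 0.07 (SE; adjusted p = 0.00058), a 1.33-fold lower level, and in KO cells it was 0.02, with a 95% interval of -0.14 to 0.18. The KO effect minus the WT effect was 0.43 ± 0.1 (adjusted p = 0.0161). That call was lost without KO db-cAMP replicate 1 (0.44), KO db-cAMP replicate 2 (0.43), WT db-cAMP replicate 2 (0.39) or WT vehicle replicate 1 (0.40). A dimmer Tfam probe set gave 237 and 131 in WT cells with db-cAMP, against 283 and 236 in WT cells with vehicle, and its log2 change of -0.54 ± 0.27 did not pass (adjusted p = 0.18). In KO cells it changed by -0.18 ± 0.27 (adjusted p = 0.834). Its KO effect minus its WT effect, 0.36 ± 0.39, did not pass (adjusted p = 0.686). With the mean of both probe sets that difference was 0.39 and did not pass either (adjusted p = 0.338).

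Esrra encodes ERRα, the orphan nuclear receptor through which PGC-1 coactivators reach genes of oxidative metabolism. Its brighter probe set gave 529 and 413 in KO cells with db-cAMP and 491 and 439 in KO cells with vehicle. In WT cells it gave 293 and 343 with db-cAMP, against 527 and 418 with vehicle. The log2 change was -0.56 ± 0.18 in WT cells (SE; adjusted p = 0.0271) and 0.01 in KO cells (95% interval -0.38 to 0.40). The WT call rested on single arrays: it was lost without WT db-cAMP replicate 1 (-0.45, adjusted p = 0.133) and without WT vehicle replicate 1 (-0.39, adjusted p = 0.2). A second, dimmer probe set gave 74.4 and 81.3 in WT cells with db-cAMP, between the 39.2 and 121 of WT cells with vehicle. In KO cells it gave 122 and 72.3 with db-cAMP against 155 and 161 with vehicle. Its log2 changes, 0.15 ± 0.48 in WT cells and -0.72 ± 0.48 in KO cells, did not pass (adjusted p = 0.859 and 0.531). The mean of both probe sets had a log2 change of -0.21 in WT cells (adjusted p = 0.605). The difference between the genotypes' effects did not pass at the brighter probe set, at 0.57 ± 0.25 (adjusted p = 0.193). At the dimmer one it had the opposite sign, at -0.86 ± 0.67 (adjusted p = 0.547).

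Nrf1 and Gabpa, the DNA-binding partners with binding letters in the promoters above, did not pass with db-cAMP in either genotype. Nrf1 gave 350 and 375 in KO cells with db-cAMP against 277 and 447 in KO cells with vehicle, and 386 and 533 in WT cells with db-cAMP against 382 and 299 in WT cells with vehicle. Its log2 change was 0.04 in KO cells (95% interval -0.46 to 0.54) and 0.42 ± 0.23 in WT cells (95% interval -0.08 to 0.92). None of its 4 probe sets passed in any comparison when every probe set was tested, where 4.79% of all probe sets passed for db-cAMP in KO cells, 26.0% for db-cAMP in WT cells, 24.2% for KO against WT under db-cAMP, 10.3% under vehicle and 6.83% for the interaction. The Gabpa log2 change was 0.00 in KO cells (95% interval -0.28 to 0.29) and -0.01 in WT cells (95% interval -0.29 to 0.28) at its brighter probe set. At its other probe set, 1070 and 1100 in WT cells with db-cAMP lay above the 866 and 888 of WT cells with vehicle, with a log2 change of 0.30 ± 0.11 that did not pass (adjusted p = 0.054).

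**Figure D2:**
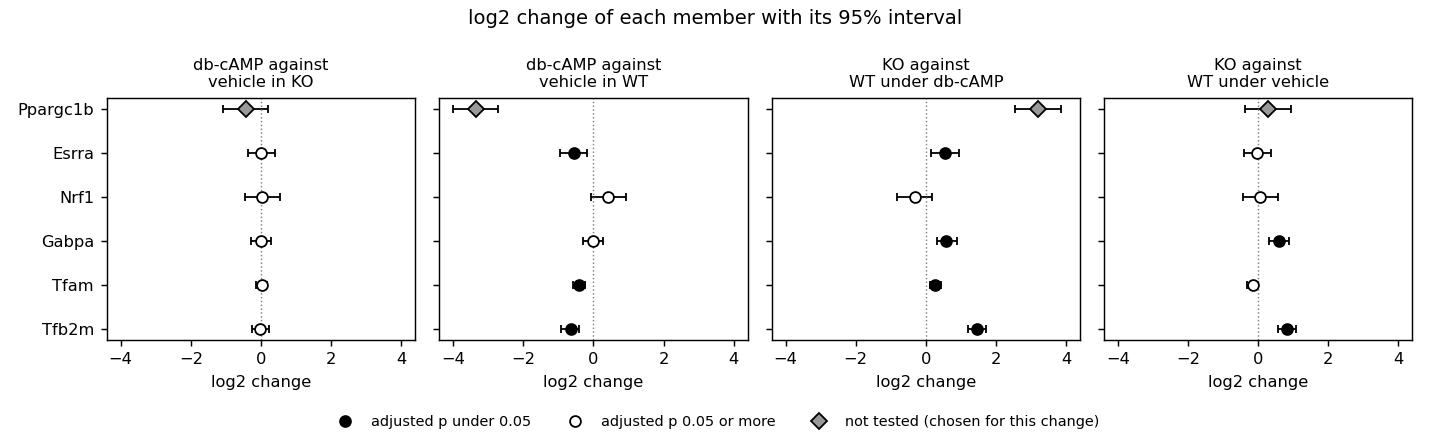
log2 change of the 6 members fitted, with 95% intervals of the limma fit, for db-cAMP against vehicle in KO and WT cells and for KO against WT under db-cAMP and vehicle; filled circles passed an adjusted p of 0.05, open circles did not, and the grey diamond is Ppargc1b, which was chosen for its values and not tested. In KO cells all 5 tested members lay between -0.02 and 0.04 with db-cAMP, and in WT cells Tfb2m, Esrra and Tfam lay at -0.65, -0.56 and -0.41.

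Between genotypes, Tfb2m was higher in KO cells under both treatments. The signals above, 2430 and 2610 in KO cells with db-cAMP against 848 and 982 in WT cells with db-cAMP, were a 2.75-fold difference (log2 1.46 ± 0.12, adjusted p = 1.07e-06). Under vehicle, 2790 and 2340 in KO cells against 1570 and 1320 in WT cells were a 1.77-fold difference (log2 0.82 ± 0.12, adjusted p = 0.000577). The comparison under db-cAMP uses the same WT arrays as the WT db-cAMP effect, so it is not separate evidence for it.

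The probe sets of Gabpa disagreed about the genotype. The brighter one gave 2700 and 3260 in KO cells with db-cAMP against 1770 and 2190 in WT cells with db-cAMP, and 2960 and 2970 in KO cells with vehicle against 1730 and 2250 in WT cells with vehicle. It was higher in KO cells under db-cAMP (log2 0.59 ± 0.13, adjusted p = 0.00395) and under vehicle (log2 0.58 ± 0.13, adjusted p = 0.0123). The vehicle call was lost without KO vehicle replicate 1 (0.59), KO vehicle replicate 2 (0.58) or WT vehicle replicate 1 (0.40), and the db-cAMP call without KO db-cAMP replicate 2 (0.46). The other Gabpa probe set gave 989 and 953 in KO cells with db-cAMP against 1070 and 1100 in WT cells with db-cAMP, the opposite order, with a log2 difference of -0.16 ± 0.11 (adjusted p = 0.33), and 0.08 ± 0.11 under vehicle (adjusted p = 0.759). With the mean of both, neither difference passed, at 0.22 under db-cAMP (adjusted p = 0.167) and 0.33 under vehicle (adjusted p = 0.0845).

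In all, 4 of the 5 members were higher in KO cells under db-cAMP, where 29.2% of all genes changed (15.9% higher and 13.3% lower), and 2 of the 5 were higher under vehicle, where 10.8% changed (5.06% higher and 5.78% lower). Under db-cAMP the other calls were Esrra (0.55 ± 0.18, adjusted p = 0.0335) and Tfam (0.27 ± 0.07, adjusted p = 0.0138). Both depended on single arrays, on scaling, on the probe sets read and on the intensity trend of the fit. With the mean of the probe sets, Esrra stood at 0.41 (adjusted p = 0.301) and Tfam at 0.18 (adjusted p = 0.432). Without the intensity trend neither passed (adjusted p = 0.0968 for Esrra and 0.0723 for Tfam). Esrra was lost without KO db-cAMP replicate 1 (0.37) or WT db-cAMP replicate 1 (0.44), and Tfam without KO db-cAMP replicate 1 or 2 or WT db-cAMP replicate 2. With arrays set to an equal 75th percentile, which moved the median of all genes to -0.13 under db-cAMP and -0.10 under vehicle, they stood at 0.43 (adjusted p = 0.095) and 0.15 (adjusted p = 0.194), and Tfam became lower in KO cells under vehicle (-0.26, adjusted p = 0.048). The same scaling moved the share of higher calls among all calls to 37.9%, against 54.6% without it, under db-cAMP, to 25.4%, against 46.7%, under vehicle, and to 43.4%, against 56.1%, for the db-cAMP effect in KO cells. The poly-A control signals also differed by genotype, at 4160 to 5830 on the KO arrays and 1440 to 2150 on the WT arrays, as did the summed B cell markers, at 305 to 366 and 464 to 639. Hybridisation controls differed in the direction opposite to poly-A, at 14300 to 15900 on the KO arrays and 18100 to 27200 on the WT arrays. The part of these in the genotype differences was not tested.

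**Figure D3:**
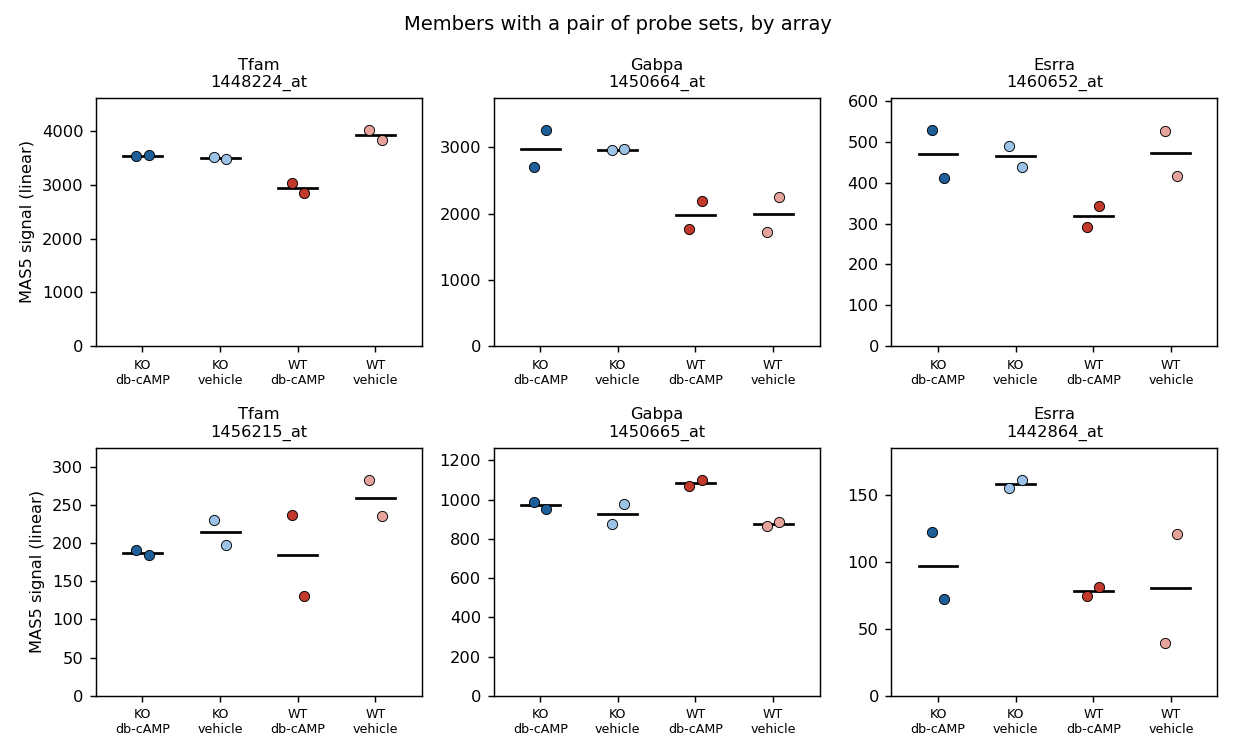
MAS5 signal (linear scale from 0, each panel with its own axis) of the 3 members with a pair of probe sets, Tfam, Gabpa and Esrra, in each of the 8 arrays; points are arrays and black lines are means of 2 arrays. The upper Gabpa probe set was at 2700 to 3260 on KO arrays and 1730 to 2250 on WT arrays, whereas the lower one overlapped between genotypes.

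Over the 5 members, the KO effect of db-cAMP minus the WT effect passed for 2, Tfam and Tfb2m, both positive, beside 11.8% of all genes (6.70% positive and 5.09% negative).

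Coactivator partners and upstream regulators were read beside the members. Of 27 on the array, 24 were tested, and with db-cAMP 2 rose and 2 fell in KO cells (median log2 change 0.04) while 6 rose and 4 fell in WT cells (median 0.11). These counts stand beside 8.38% of all genes called in KO cells and 35.0% in WT cells, to which the 10 of 24 in WT cells are near. The KO count of 4 was 2 without KO db-cAMP replicate 1 or 2. The steepest fall of this list in WT cells was that of Myc, with a log2 change of -1.98 (adjusted p = 3.55e-10). In KO cells Myc changed by -0.52 (adjusted p = 0.000421). Pprc1, the third and more distant member of the PGC-1 coactivator family, also fell in both genotypes. It gave 1920 and 1920 in KO cells with db-cAMP against 2840 and 2400 in KO cells with vehicle, and 669 and 788 in WT cells with db-cAMP against 2390 and 2570 in WT cells with vehicle. Its log2 change was -0.45 ± 0.11 in KO cells (adjusted p = 0.0216) and -1.76 ± 0.11 in WT cells (adjusted p = 3.51e-08), and the difference of 1.32 ± 0.15 passed (adjusted p = 0.000133). The KO call was lost without KO db-cAMP replicate 1 or 2 or KO vehicle replicate 1.

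Other regulators moved in both directions. Kat2a, which encodes the acetyltransferase GCN5 that acetylates PGC-1α, was lower in WT cells with db-cAMP, at 1200 and 1040 against 1800 and 1890 with vehicle (log2 change -0.71). Nrip1, which encodes the corepressor RIP140, rose by 0.82 in KO cells and by 0.60 in WT cells on the log2 scale. Its KO call was lost with the mean of its probe sets (0.79, adjusted p = 0.0997). Tfeb, a regulator of lysosome and mitochondrial turnover genes, rose in WT cells to 187 and 192 with db-cAMP, against 4.69 and 36.3 with vehicle, which lie below the array medians (log2 change 3.24 ± 0.63, adjusted p = 0.00113). The size of that change is not well fixed, at 2.22 without WT vehicle replicate 1 and 4.26 without WT vehicle replicate 2. Stk11, the AMPK-activating kinase LKB1, rose by 0.91 in WT cells, but the mean of its probe sets gave 0.18 (adjusted p = 0.746). Creb1, the cAMP-response element binding protein, did not pass with db-cAMP but differed by genotype, at 2460 and 2380 in KO cells against 1070 and 1250 in WT cells with db-cAMP (log2 difference 1.06). The mean of the Creb1 probe sets gave 0.07 and did not pass.

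Tfam and Tfb2m stand in a wider group of genes that copy and transcribe mitochondrial DNA. Of the 22 others tested, 0 passed with db-cAMP in KO cells (median log2 change -0.08; 1 passed without KO vehicle replicate 1), and 9 fell and 3 rose in WT cells (median -0.31). Of all genes, 8.38% were called in KO cells, and in WT cells 18.6% were lower and 16.4% higher. Top1mt, the mitochondrial topoisomerase, gave 587 and 580 in WT cells with db-cAMP against 1110 and 988 with vehicle. Tefm, the mitochondrial transcription elongation factor, gave 369 and 421 against 668 and 751. Twnk, the replicative helicase, gave 464 and 445 against 720 and 839. The log2 changes were -0.84 for Top1mt, -0.84 for Tefm and -0.77 for Twnk. Polg, the catalytic subunit of the mitochondrial DNA polymerase, went the other way, at 1410 and 1280 with db-cAMP against 881 and 844 with vehicle (log2 change 0.63). Polrmt, the mitochondrial RNA polymerase, and Tfb1m, the rRNA methyltransferase related to Tfb2m, were named after their values were seen. Polrmt did not pass in WT cells (-0.24 ± 0.11, adjusted p = 0.119), and Tfb1m did (-0.44 ± 0.13, adjusted p = 0.0161), but its call was lost without WT db-cAMP replicate 1 (-0.35), WT vehicle replicate 1 (-0.46) or WT vehicle replicate 2 (-0.42).

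Genes of protein import and mitochondrial chaperones had falls past the threshold and no rises. Of 23 tested, 5 fell in KO cells with db-cAMP (median log2 change -0.16) and 12 fell in WT cells (median -0.31), with 0 rises in either. Of all genes, 3.68% were lower in KO cells and 18.6% in WT cells. The count in KO cells was 3 without KO db-cAMP replicate 2 or KO vehicle replicate 2, and 1 without the intensity trend. The steepest falls were in the small Tim chaperone genes Timm8a1, Timm9 and Timm10 and in Chchd4 (Mia40), the import receptor that folds small Tim proteins. Timm13, another small Tim gene, changed less, by -0.31 in WT cells (adjusted p = 0.00473) and -0.10 in KO cells (adjusted p = 0.523). Timm10 gave 5160 and 5200 in KO cells with db-cAMP against 6910 and 7510 in KO cells with vehicle, and 2560 and 2250 in WT cells with db-cAMP against 7650 and 7690 in WT cells with vehicle. Chchd4 gave 2050 and 2000 in KO cells with db-cAMP against 3330 and 3510 in KO cells with vehicle, and 1080 and 1060 in WT cells with db-cAMP against 3560 and 3410 in WT cells with vehicle. The log2 changes in WT cells were -1.68 for Timm10, -1.70 for Chchd4, -1.72 for Timm9 and -1.60 for Timm8a1. In KO cells they were -0.48, -0.75, -0.65 and -0.59 in the same order, all past the threshold, that of Timm9 lost without KO db-cAMP replicate 2 (-0.63) or KO vehicle replicate 2 (-0.62). Without the intensity trend the KO calls of Timm10, Timm9 and Timm8a1 were lost (adjusted p = 0.104, 0.0599 and 0.0589) and that of Chchd4 was not. The difference between the genotypes passed for all 4 genes.

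Genes of fuel oxidation known as targets of PGC-1 and ERR were also counted. Of 14 tested, 1 rose in KO cells with db-cAMP, and 6 rose and 1, Idh3a, fell in WT cells, beside 8.38% of all genes called in KO cells and 35.0% in WT cells (16.4% higher and 18.6% lower). The WT count of 7 was 4 without WT db-cAMP replicate 2. Idh3a, a subunit of isocitrate dehydrogenase, changed by -0.34 on its brighter probe set, was lost without WT db-cAMP replicate 2 (-0.23) or WT vehicle replicate 2 (-0.29), and stood at 0.10 as the mean of its probe sets (adjusted p = 0.826). Cpt1a, the rate-limiting carnitine palmitoyltransferase of fatty acid oxidation, gave 501 and 412 in KO cells with db-cAMP against 424 and 403 in KO cells with vehicle, and 548 and 650 in WT cells with db-cAMP against 182 and 161 in WT cells with vehicle (log2 change 1.77 ± 0.17 in WT cells, adjusted p = 2.77e-06). Its WT arrays with vehicle stood apart from the other 6. Acadm, a medium-chain acyl-CoA dehydrogenase, rose by 0.71 in WT cells and 0.33 in KO cells. Its call in KO cells was lost without any 1 of the 4 KO arrays. Cycs, cytochrome c, did not pass with db-cAMP in WT cells (-0.11 ± 0.09, adjusted p = 0.35), but passed as a fall with the mean of its probe sets (-0.78, adjusted p = 0.00452) and after quantile normalization (-0.28, adjusted p = 0.00146). It was lower in KO cells under vehicle, at 25600 and 25600 against 37100 and 40300 in WT cells (log2 difference -0.59 ± 0.09, adjusted p = 0.000591).

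Of 14 genes of mitochondrial fusion, fission and mitophagy, 1 rose and 1 fell with db-cAMP in KO cells, and 3 rose and 3 fell in WT cells. Both counts are near the shares of all genes, 8.38% in KO cells and 35.0% in WT cells. The KO count of 2 was 1 without KO db-cAMP replicate 1 or KO vehicle replicate 2. Pink1, the kinase that marks damaged mitochondria, rose in both, at 1750 and 1770 against 1050 and 1120 in KO cells and at 2050 and 2000 against 890 and 1060 in WT cells. Sqstm1, the autophagy receptor p62, rose by 1.11 in WT cells, and the mean of its probe sets gave 0.55 (adjusted p = 0.251). Of 7 antioxidant genes, 1 rose in KO cells, and 1 rose and 2 fell in WT cells, near the same shares of all genes. Gpx4, the lipid hydroperoxide peroxidase, was the one that rose, at 4190 and 4000 against 2790 and 3000 in KO cells and at 9680 and 9420 against 3490 and 3010 in WT cells. Prdx3, the mitochondrial peroxiredoxin, fell by 0.55 on the log2 scale in WT cells.

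**Figure D4:**
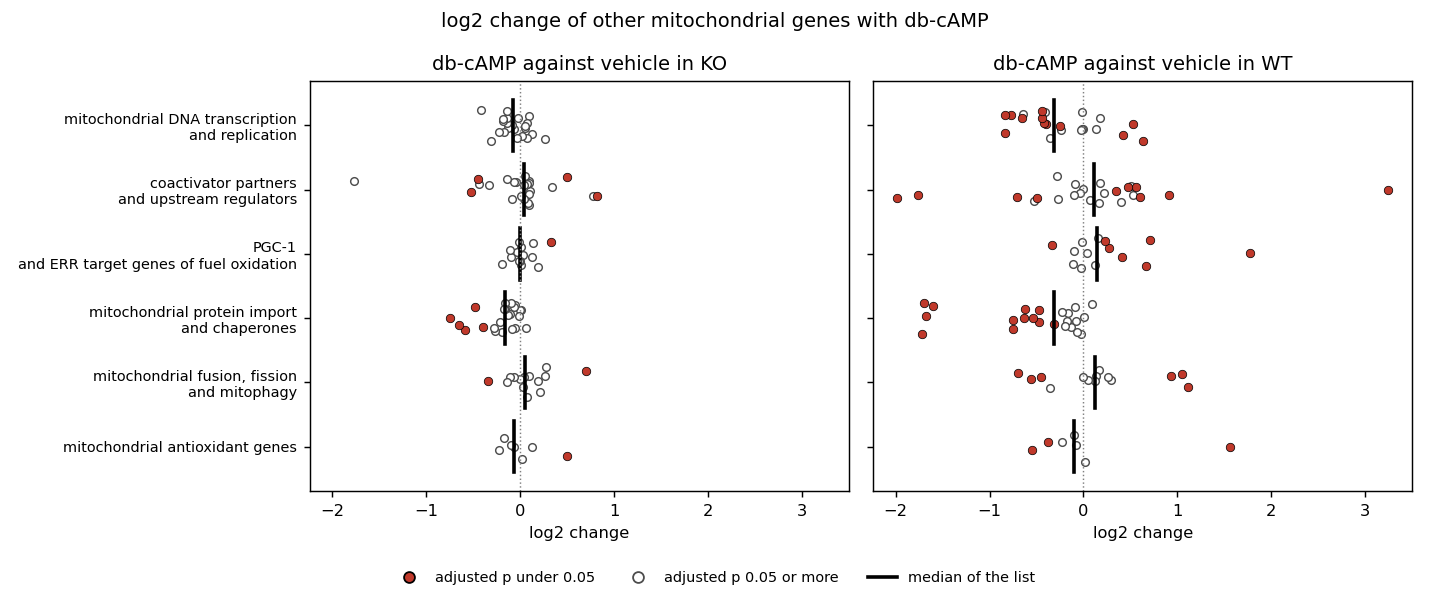
log2 change with db-cAMP against vehicle in KO cells (left) and WT cells (right) for the tested genes of 6 lists of mitochondrial genes; filled points passed an adjusted p of 0.05, open points did not, and black lines are list medians. The import and chaperone list has its 4 lowest points in WT cells between -1.72 and -1.60, and its median was -0.16 in KO cells and -0.31 in WT cells.

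Between genotypes under vehicle, 10 of the 23 import and chaperone genes were lower in KO cells and 0 were higher, beside 5.78% of all genes lower and 5.06% higher. That count was 6 without KO vehicle replicate 1 or 2, 5 after quantile normalization and 0 without the intensity trend. Under db-cAMP, 7 were higher and 4 were lower in KO cells, where 29.2% of all genes were called. Of the 22 genes acting on mitochondrial DNA, 8 were higher in KO cells under db-cAMP and 0 were lower, beside 15.9% of all genes higher and 13.3% lower. The count of 8 was 5 without KO db-cAMP replicate 1 or 2 or without the intensity trend. Without that trend the counts with db-cAMP were also lower for the mitochondrial DNA list in WT cells (7), the fuel oxidation list in WT cells (4), and in KO cells for the regulators (1) and for the fuel oxidation list, the fusion, fission and mitophagy list and the antioxidant list (0 each). Polrmt was among the 8 mitochondrial DNA genes that were higher in KO cells under db-cAMP (0.54 ± 0.11, adjusted p = 0.00238).

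The tested genes whose 8 signals followed those of Ppargc1b most closely, by the root mean square difference of centred log2 values, were 4930429B21Rik (0.27), Adamts6 (0.36), Mipol1 (0.40), Zbed5 (0.41) and Nt5dc2 (0.42). Adamts6 gave 822 and 803 in KO cells with db-cAMP against 1460 and 1390 in KO cells with vehicle, and 166 and 150 in WT cells with db-cAMP against 1480 and 1450 in WT cells with vehicle. The likeness of 3 others rests on dim values. In WT cells with db-cAMP, 4930429B21Rik gave 4.29 and 1.98, Mipol1 5.3 and 3.16, and Nt5dc2 6.21 and 4.73, all below the array medians. The likeness depends on the measure: ranked by Pearson correlation over the 8 arrays, the first 5 were Mettl1, Rrs1, 4930429B21Rik, Spry1 and Stard7, which share 1 gene with the first list. None of the 5 other members tested was among the first 5 by either measure.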

How the data were processed

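Transcripts were measured on 8 Affymetrix arrays hybridised with biotin-labelled cRNA, per the labels' protocols. The authors deposited a linear signal intensity for each probe set, made with MAS5 per the submitters' processing notes (version not given in the sources used here), and the trimmed mean was 500 on each array. Scaling of this kind hides any change in total mRNA per cell. Array number, not depth, limits the precision, and detection calls were not used here.

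Values were taken as log2(value + 5.48), the offset being the 10th percentile. Genes were named only from probe sets with 1 symbol in the platform annotation, with the probe set of highest mean log2 value per gene. A gene was tested if its value exceeded the array median in 2 or more arrays (12091 genes tested, 6102 set aside). Probe sets of a gene were also tested singly. Differences were tested with limma 3.58.1 (lmFit, eBayes with intensity trend) in R 4.3.3 over all 8 arrays with 4 residual degrees of freedom, Benjamini-Hochberg adjusted over all genes, and the fit was tested on simulated data. Python 3.11.15 with matplotlib 3.10.9 drew the figures. SE is that of the fit and interactions are the KO effect minus the WT effect.

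The members and lists were chosen with earlier results of these data known. Named genes were the 7 members, up to 3 rises and 3 falls with the largest change among called genes of each list (the text names a part), the 5 genes most like Ppargc1b, and Ifngr1, Gbp2 and Crem. Timm13 was added beside the other small Tim genes. Besides the pathway lists, marker lists were read. The 4 CD8 T and NK cell markers named summed to 731 to 1260 per array, at 1210 and 1210 in KO cells with db-cAMP against 762 and 731 with vehicle, and 1140 and 1260 in WT cells with db-cAMP against 1020 and 925 with vehicle. In this sum Klrd1 rose, at 931 and 928 against 436 and 379 in KO cells and 760 and 811 against 509 and 379 in WT cells. Cd8b1 went the other way without passing, at 150 and 139 against 176 and 205 in KO cells and 256 and 291 against 362 and 367 in WT cells. Cd8a did not pass with db-cAMP in either genotype. The 4 B cell markers summed to 305 to 639, the 9 macrophage, neutrophil and dendritic cell markers to 410 to 584, and the 3 erythroid and platelet markers, none of which passed the filter, to 23.9 to 115. Replicate arrays correlated at 0.961 to 0.977 and had at most 1 identical value. Alternatives were other offsets (1 and 16), filters, scalings, probe set rules, the fit without the intensity trend, with only the groups compared, with the replicate number as a block, and without each array.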

Additional observations from a re-analysis of the deposited data

Results flagged for a closer look

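The effect of db-cAMP differed between KO and WT cells, by the interaction of the limma fit, for 2 of the 5 members tested besides Ppargc1b and 13 of the 24 other genes named from the lists, beside 11.8% of all genes. Myc and Timm13 are not among these 24. The 24 were named largely for having the greatest changes among called genes of a comparison, the interaction included, so their share is no measure of the lists. Each value subtracts the WT effect from the KO effect, on the log2 scale. For the members it was 0.43 for Tfam and 0.64 for Tfb2m, where the fall seen in WT cells had no counterpart past the threshold in KO cells.

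Values were also positive for genes that fell more in WT cells. These were 1.32 for Pprc1, 0.65 for Kat2a, 0.62 for Twnk, 1.20 for Timm10, 1.07 for Timm9, 1.01 for Timm8a1, 0.95 for Chchd4 and 0.38 for Prdx3. Values were negative for genes that rose more in WT cells, at -1.63 for Cpt1a, -1.06 for Gpx4, -0.84 for Sqstm1, -0.82 for Stk11 and -0.38 for Acadm. The calls of Pprc1, Timm10, Timm9, Timm8a1, Chchd4, Cpt1a and Gpx4 passed in all 18 alternatives fitted, those of Kat2a, Stk11 and Sqstm1 in 16, that of Prdx3 in 12, that of Acadm in 8 and that of Twnk in 6. For Twnk and Acadm the call was lost without any 1 of 7 arrays, all but WT vehicle replicate 1. For Prdx3 it was lost without KO db-cAMP replicate 2, KO vehicle replicate 1, WT db-cAMP replicate 2 or WT vehicle replicate 1. The interaction of Ppargc1b, 2.91, chose the gene and was not tested.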

How the results depend on the processing

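Up to 19 alternatives were fitted per result. The WT calls of Tfam (log2 change -0.48 to -0.37) and Tfb2m (-0.78 to -0.53) and the higher Tfb2m level in KO cells under db-cAMP passed in all 19, and that under vehicle in 18, being lost without the intensity trend (0.82, adjusted p = 0.0663). The Ppargc1b change in WT cells ran from -3.63 to -2.89. Leaving out 1 array at a time, the members passing numbered 2 to 3 for db-cAMP in WT cells, 0 to 0 in KO cells, 2 to 4 for KO against WT under db-cAMP, 1 to 2 under vehicle and 0 to 2 for the interaction. Without the intensity trend the count was 1 for KO against WT under db-cAMP, 0 under vehicle and 0 for the interaction. With the mean of a gene's probe sets these counts were 1, 1 and 0. With an equal 75th percentile, KO against WT under db-cAMP gave 2. The mean of probe sets turned the sign of Idh3a in WT cells (0.10, adjusted p = 0.826) and of Nrip1 for KO against WT under vehicle (0.59, adjusted p = 0.183), and the cause was not tested. Other values not past the threshold changed sign in 73 cases. With the replicate number as a block, the members passing were 3 for db-cAMP in WT cells, 0 in KO cells, 4 for KO against WT under db-cAMP, 2 under vehicle and 2 for the interaction. The block changed no member count, and same-numbered arrays did not deviate together (correlations from -0.02 to 0.02), so the numbers give no pairing. A group of 2 arrays limits every value, and dim signals such as those of Ppargc1a and of Ppargc1b in WT cells with db-cAMP limit theirs further.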
